A study of Mus musculus with 14 samples.

Results

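Neurod1, Neurod2, Neurod4, Neurod6, Neurog1, Neurog2 and Atoh7 are basic helix-loop-helix (bHLH) transcription factors, and their 7 rows among the 31054 genes of the count tables were followed across cell states, lineages, stages and genotypes. The rows were taken by gene symbol. Labeled hindbrain cells were profiled by droplet single-cell RNA sequencing in 14 libraries. At E14.5 and E18.5 there were 3 control and 3 Atoh1S193A/- embryos each, with 1 library per embryo, and at P5 there were 2 libraries of dissected pontine nuclei (PN) from pooled control pups. Control embryos carried Atoh1Cre over a wild-type Atoh1 allele and 1 copy of the Cre-dependent TdTomato reporter at Rosa. Atoh1S193A/- embryos carried the same reporter and Atoh1Cre over the S193A allele, a point mutation of serine 193 with reduced function. Because Cre replaced the coding sequence of Atoh1, every group, controls included, had 1 null allele. The mice were of the C57BL/6J background. The sort took TdTomato-positive cells of the dissected tissue, which was meant to yield descendants of any cell that had once expressed Cre. It thus held cerebellar and rostral neurons and not the PN lineage alone. Microglia-like cells were also kept at P5, so the sort was not free of other lineages. Each Atoh1S193A/- embryo was collected with a littermate control, and embryos of a stage with the same replicate number are treated here as littermates.

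Proneural bHLH factors bind E-box DNA sequences together with partners of the E-protein family, and they drive progenitors out of the cell cycle and into neuronal differentiation. Neurog1, Neurog2 and Atoh7 act early, around the time a progenitor commits to a neuronal fate, whereas Neurod1, Neurod2, Neurod4 and Neurod6 usually follow in young and maturing neurons. Atoh1, a relative of Atoh7, specifies the glutamatergic neurons of the rhombic lip, among which are the PN neurons, the granule cells and the unipolar brush cells. Atoh7 is best known for the retinal ganglion cells and Neurod1 for the granule cells.

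All 7 members are short genes of 1 or 2 exons. In the GENCODE annotation of GRCm38, Neurod1 lies at chr2:79452521-79456751 on the minus strand, Neurod2 at chr11:98325415-98329648 on the minus strand, Neurod4 at chr10:130268152-130280240 on the minus strand and Neurod6 at chr6:55677822-55681263 on the minus strand. Neurog1 lies at chr13:56250478-56252163 on the minus strand, Neurog2 at chr3:127633135-127635631 on the plus strand and Atoh7 at chr10:63099651-63101279 on the plus strand. Neurod1 lies within Cerkl on the same strand, and 201 of its 2729 exon bases (7.37%) are shared with exons of Cerkl, so reads in those bases could not be given to either gene alone.

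Neurod2 and Neurod6 had the most similar pattern of any pair of members across the clusters described below, so the 250 bases before their annotated starts are shown, 5′ to 3′ on the strand of the gene. The sequences are from RefSeq on GRCm38.p6, at chr11:98329646-98329895 for Neurod2 and at chr6:55681264-55681513 for Neurod6, both on the minus strand. Capitals mark each match to the E-box CANNTG, which reads the same on both strands.
Neurod2: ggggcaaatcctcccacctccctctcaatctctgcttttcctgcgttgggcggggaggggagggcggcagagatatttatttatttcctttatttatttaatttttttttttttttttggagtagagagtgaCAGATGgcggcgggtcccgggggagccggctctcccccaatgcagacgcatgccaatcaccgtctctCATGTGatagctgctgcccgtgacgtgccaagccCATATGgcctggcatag
Neurod6: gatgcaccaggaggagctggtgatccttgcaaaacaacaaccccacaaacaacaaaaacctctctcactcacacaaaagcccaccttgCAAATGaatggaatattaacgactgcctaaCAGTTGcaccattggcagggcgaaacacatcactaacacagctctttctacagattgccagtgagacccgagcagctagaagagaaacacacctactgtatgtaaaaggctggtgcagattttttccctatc
Neurod2 held 3 matches, whose first bases stood at -118, -51 and -17 from the start, and Neurod6 held 2, at -162 and -132. At least 1 match to CANNTG was present in 66.2% of the 32851 windows of the same length before RefSeq starts, with a mean of 1.16 matches per window.

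The libraries held 108239001 to 236964126 UMIs each, and 80250 of 150188 barcodes were kept, 3248 to 8726 per library. The median kept cell had 12010.5 to 20922 UMIs. Pairs of libraries shared 13 to 67 cell barcodes, at most 0.624% of the smaller library. PN-like clusters (4 at E14.5, 4 at E18.5 and 7 at P5) had 4 to 6 of 6 PN markers above the mean, namely Pax6, Barhl1 and the Hox genes Hoxb2, Hoxb3, Hoxb4 and Hoxb5, and their cells were divided into states and subtypes named from the study's own marker lists. Clusters that failed the marker check kept a number, which applied to 9175 cells at E14.5, 2369 at E18.5 and 2677 at P5. Levels are given as UMIs of a gene for each 1000000 UMIs of the same cells (CPM), summed per library. The members were left out of the clustering, but a level in one cluster against another is still a description and was not tested. The S193A mutation cannot be read from 3′ counts, so the level of Atoh1 does not check the genotype labels. Over all kept cells Atoh1 was at 136.6, 55.0 and 57.5 CPM in the E14.5 control libraries and at 143.8, 86.2 and 100.3 CPM in the Atoh1S193A/- libraries. At E18.5 Atoh1 was at 34.4, 35.4 and 28.6 CPM in control and at 54.0, 45.9 and 31.7 CPM in Atoh1S193A/- libraries, and at P5 at 2.36 and 3.84 CPM.

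**Figure D1:**
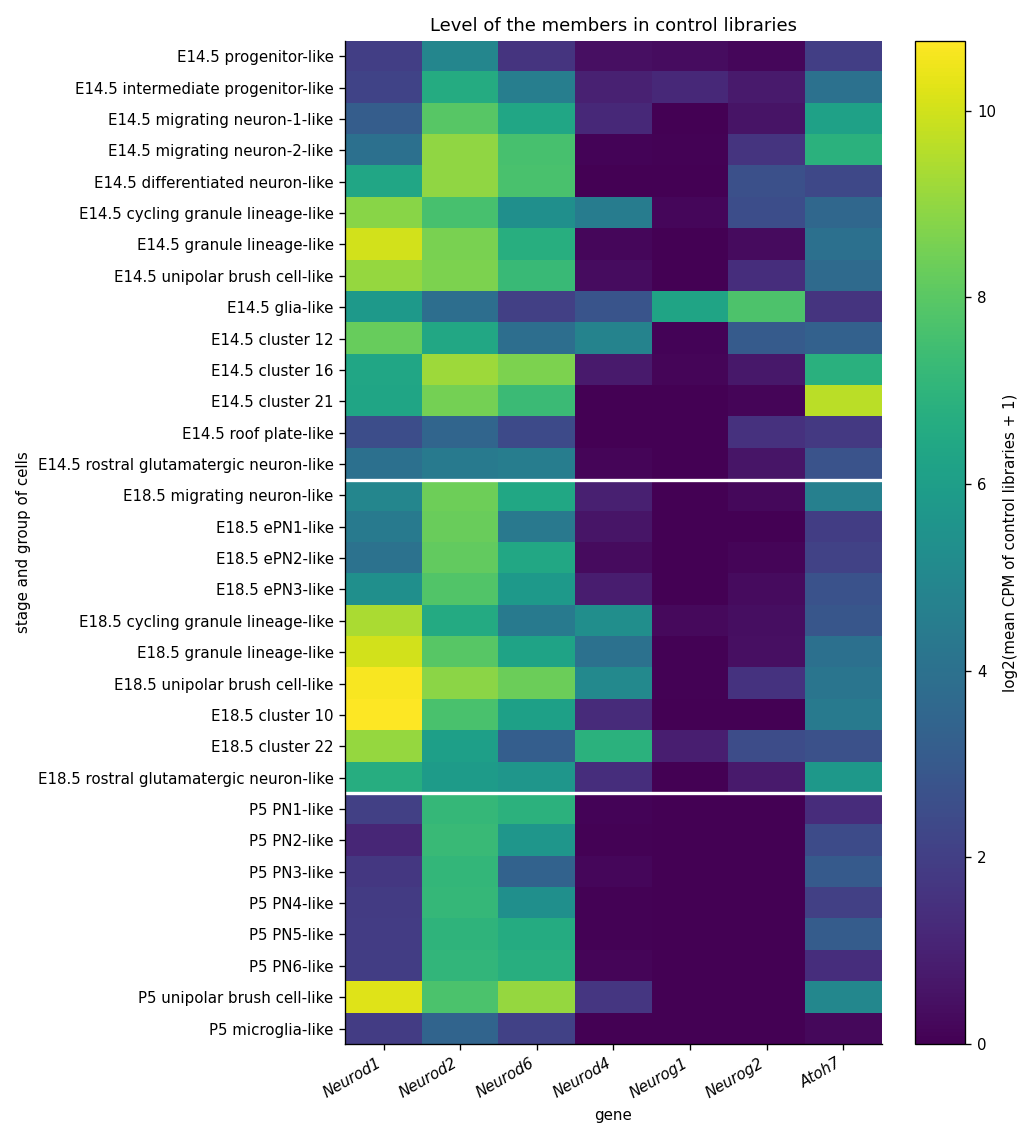
Mean level of each member (columns) in selected cell groups of the control libraries (rows, white lines separate E14.5, E18.5 and P5), as log2 of CPM plus 1, with 3 libraries per embryonic stage and up to 2 at P5. Neurod2 and Neurod6 were high through most PN-like rows, Neurod1 in granule and unipolar brush cell rows, Neurod4 in E18.5 cluster 22, Neurog1 and Neurog2 in the E14.5 glia-like row and Atoh7 in E14.5 cluster 21.

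Neurod2 climbed through the PN lineage at E14.5, from near background in progenitors to its highest levels in neurons. In the E14.5 control libraries, Neurod2 was at 29.3 ± 13.3 CPM in progenitor-like cells, 96.4 ± 54.3 in intermediate progenitor-like cells, 247.6 ± 52.7 among migrating neuron-1-like cells, 498.7 ± 76.6 among migrating neuron-2-like cells and 500.6 ± 76.8 in differentiated neuron-like cells (SD, n = 3). The last 2 states could not be ordered, since their means differed by far less than the SD, whereas both lay far above progenitor-like cells. The progenitor-like libraries, at 16.4 to 42.9 CPM, overlapped those of roof plate-like cells (5.27 to 18.55 CPM) and rostral glutamatergic neuron-like cells (12.3 to 27.7 CPM), so Neurod2 in progenitor-like cells cannot be told from background. After each cell was thinned to 5000 UMIs, a Neurod2 UMI was present in 73.1% of PN-like cells at E14.5, against 3.98% of roof plate-like cells, and the median depths were 17820 and 17730 UMIs. Across stages the PN-like cells had 418.0, 425.3 and 349.5 CPM of Neurod2 at E14.5, 287.4, 313.6 and 285.2 at E18.5 and 147.2 and 143.9 at P5. The libraries of the 3 stages did not overlap, and the mean at E14.5 was 2.73 times that at P5. The P5 libraries came from dissected PN and the embryonic ones from whole hindbrain, so stage and dissection cannot be told apart in that step.

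Neurod6 followed Neurod2 through the E14.5 lineage. It was at 2.1 CPM in progenitor-like cells, 23.5 ± 20.8 in intermediate progenitor-like cells, 80.9 ± 13.8 among migrating neuron-1-like cells, 193.8 ± 39.0 among migrating neuron-2-like cells and 199.4 ± 25.6 in differentiated neuron-like cells (SD, n = 3). As with Neurod2, the 2 oldest states were within the spread of each other. Of 3298 thinned control PN-like cells at E14.5, 1463 had a Neurod6 UMI. Neurod2 was detected in 87.4% of those Neurod6-positive cells and in 61.7% of the rest, while Atoh1 was detected in 24.7% and 45.2%.

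Atoh7 marked a narrow window of migration. In the E14.5 control libraries, Atoh7 was at 2.97 CPM in progenitor-like cells, 15.1 ± 4.0 in intermediate progenitor-like cells, 69.1 ± 14 among migrating neuron-1-like cells and 116.6 ± 24.1 among migrating neuron-2-like cells, and then at 4.03 ± 0.93 in differentiated neuron-like cells (SD, n = 3). The drop between the last 2 states was 28.9 times, which is a lower bound. The differentiated neuron-like libraries (2.98 to 4.74 CPM) overlapped those of rostral glutamatergic neuron-like cells (4.24 to 8.03 CPM) and cannot be told from background. At clustering resolution 2.0 the highest state was migrating neuron-1-like instead. A thinned Atoh7 UMI was present in 26.9% of migrating neuron-2-like cells and in 1.80% of differentiated neuron-like cells, close to the 1.39% of roof plate-like cells, with median depths of 18430, 18280 and 17730 UMIs. Atoh1 was detected in 60.8% of the 360 Atoh7-positive PN-like cells and in 33.1% of the rest.

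Neurod1 was low in most of the PN lineage. In E14.5 control libraries Neurod1 was at 2.9 to 14.8 CPM from progenitor-like to migrating neuron-2-like cells and at 82.4 ± 75.9 CPM in differentiated neuron-like cells (SD, n = 3). The latter value rested on 1 litter. Differentiated neuron-like cells had 37.9, 169.9 and 39.3 CPM in control libraries 1, 2 and 3 and 31.1, 337.1 and 38.1 CPM in Atoh1S193A/- libraries 1, 2 and 3, and the highest of these came from 11 cells. Both embryos with replicate number 2 therefore stood above the other 4, which lay between 31.1 and 39.3 CPM.

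Pseudotime of the E14.5 PN-like cells, computed without the members and divided into 10 bins of equal cell number, gave each gene a bin in which it was highest. Atoh1 was highest in bin 3, mostly intermediate progenitor-like cells, at 638.6 ± 89.9 CPM (SD over the 6 libraries). Atoh7 went from 7.75 ± 5.42 CPM in bin 3 to 53.0 ± 11.0 in bin 4 and 154.2 ± 29.5 in bin 5, and was back at 21.7 ± 8.91 in bin 7. Neurod2 climbed from 17.4 ± 15.4 CPM in bin 2 to 636.3 ± 127.7 in bin 7 and stood at 445.9 ± 69.0 in bin 10. Neurod6 was also highest in bin 7, at 261.9 ± 116.1 CPM, with 257.5 ± 68.3 in bin 8. Neurod1 was highest in the last bin at 103.7 ± 107.5 CPM, with a range of 41.8 to 295.0 over libraries. For each of these 5 genes at least 1 neighbor of the highest bin lay within the SD of that bin, so the position of each maximum is known only to within a bin or more. When control libraries alone were used, the bins moved to 2 for Atoh1, 4 for Atoh7, 6 for Neurod2 and Neurod6 and 10 for Neurod1, in the same order.

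**Figure D2:**
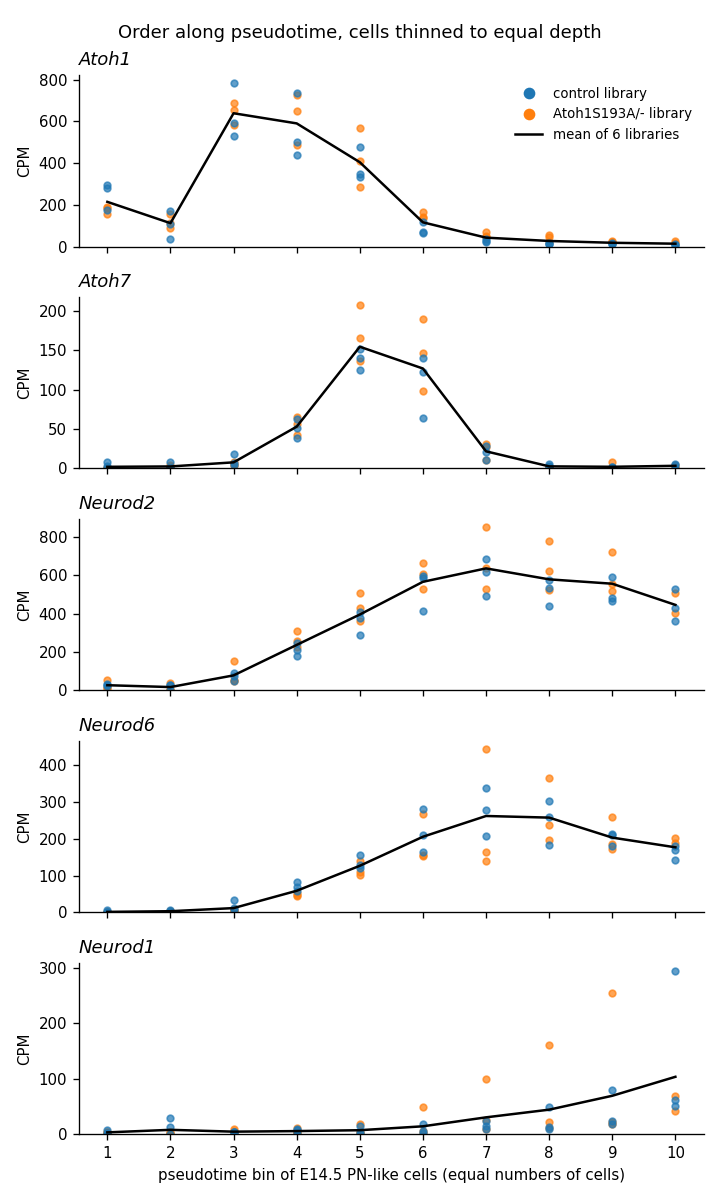
Level in CPM of Atoh1 and 4 members (vertical axes, linear and starting at 0) over 10 pseudotime bins of E14.5 PN-like cells thinned to equal depth (horizontal axis), with 1 point per library and bin and a line for the mean of the 6 libraries. Atoh1 was highest in bin 3, Atoh7 in bin 5, Neurod2 and Neurod6 in bin 7 and Neurod1 in bin 10, where 1 library reached 295.0 CPM.

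At E18.5 the PN-like cells kept Neurod2 in every subtype, while Neurod6 separated them. In control libraries Neurod2 was at 330.1 ± 15.9 CPM in migrating neuron-like cells, 309.1 ± 4.55 in ePN1-like, 288.7 ± 20.6 in ePN2-like and 227.6 ± 29.1 in ePN3-like cells (SD, n = 3). ePN1-like and ePN2-like cells could not be ordered beyond their SDs, and ePN3-like cells were the lowest of these 4 in each control library. The 54 intermediate progenitor-like cells had 200.9 ± 23.9 CPM of Neurod2, within the spread of ePN3-like cells. Neurod6 was at 86.6 ± 20 CPM in ePN2-like cells, 82.9 ± 11.5 in migrating neuron-like cells, 56.0 ± 7.34 in ePN3-like cells and 19.5 ± 6.7 in ePN1-like cells. The libraries of ePN2-like cells (66.6 to 106.5 CPM) and ePN1-like cells (13.9 to 27.0 CPM) did not overlap, but the latter overlapped glia-like cells of the same libraries (2.85 to 15.8 CPM), so Neurod6 in ePN1-like cells cannot be told from background. ePN4-like cells had the highest means of Neurod6 and Neurod1 but were few. In the 1 control library that gave a value, 18 cells had 149.2 CPM of Neurod6 and 96.8 CPM of Neurod1. In the 2 Atoh1S193A/- libraries that gave one, Neurod6 was at 137.8 and 199.9 CPM over 28 cells. Atoh7 was highest in the few intermediate progenitor-like cells, at 63.2 ± 26.8 CPM over 54 cells, and was at 24.4 ± 12.8 CPM in migrating neuron-like cells. Neurod1 in PN-like cells was at 47.9, 29.6 and 28.0 CPM. Glia-like cells of the same control libraries had 28.5 to 158.3 CPM, and a thinned Neurod1 UMI was present in 10.2% of PN-like and 13.9% of glia-like cells (median depths of 18310 and 11580 UMIs), so the PN-like level of Neurod1 at E18.5, ePN4-like cells included, cannot be told from background.

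By P5 Neurod6 varied by more than 10 times among PN-like subtypes, and Neurod2 hardly varied. Neurod6 was at 130.0 and 107.8 CPM in the 2 libraries in PN1-like cells, 107.6 and 105.8 in PN6-like cells and 102.7 and 93.2 in PN5-like cells. It was lower, at 49.995 and 49.2 CPM, in PN2-like cells and at 42.2 and 37.6 CPM in PN4-like cells, and lowest at 9.42 and 9.48 CPM in PN3-like cells. PN1-like cells thus had 12.6 times the Neurod6 level of PN3-like cells and 2.40 times that of PN2-like cells. The PN3-like level was above microglia-like cells (1.67 to 4.89 CPM). It lay within the ranges of inhibitory neuron-like (3.16 to 10.27 CPM) and cycling oligodendrocyte lineage-like cells (0 to 16.11 CPM). Neurod6 in PN3-like cells therefore cannot be told from background, and 12.6 times is a lower bound. PN1-like and PN6-like cells could not be ordered beyond the spread of the libraries. A thinned Neurod6 UMI was present in 44.3% of PN1-like cells, 4.78% of PN3-like cells and 1.48% of microglia-like cells, which should lack it, with median depths of 28480, 25530 and 10190 UMIs. Neurod2 ranged only from 130.9 and 122.2 CPM in PN5-like cells to 155.2 and 151.0 CPM in PN2-like cells, a ratio of 1.21. Neurod1 was at 2.25 and 2.41 CPM in PN-like cells of P5, and its thinned share of 0.662% was at the 0.742% of microglia-like cells, a level that cannot be told from background. The subtype names rest on marker lists that the study found on these libraries.

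**Figure D3:**
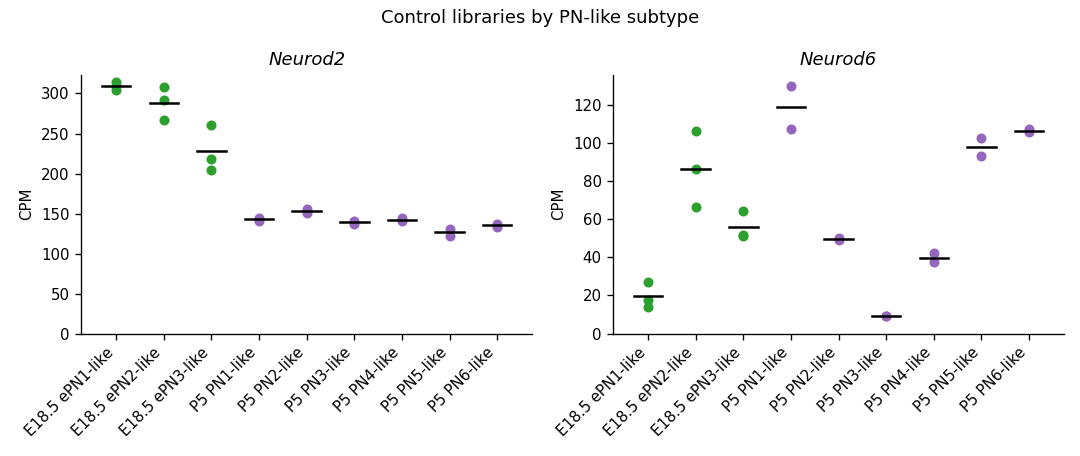
CPM of Neurod2 and Neurod6 (vertical axes, linear and starting at 0) in PN-like subtypes of control libraries (horizontal axis, green E18.5 with 3 libraries, purple P5 with 2), 1 point per library and a bar for the mean. Neurod2 lay between 122.2 and 155.2 CPM in all 6 P5 subtypes, while Neurod6 ran from 9.42 CPM in PN3-like to 130.0 CPM in PN1-like cells.

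Outside the PN lineage Neurod1 was high in the granule and unipolar brush cell lineages. Granule lineage-like cells had 1026 ± 17.5 CPM of Neurod1 at E14.5 and 1038 ± 95.9 CPM at E18.5 (SD, n = 3), and the level at E14.5 was 38.9 times that of PN-like cells. The PN-like control libraries of E14.5 (16.6 to 39.2 CPM) overlapped those of rostral glutamatergic neuron-like cells (9.93 to 20.5 CPM). Their level, all PN-like states together, cannot be told from background, and 38.9 times is a lower bound. Cycling granule lineage-like cells had 458.3 ± 43.9 CPM at E14.5 and 661.5 ± 69.2 CPM at E18.5. Unipolar brush cell-like cells, an excitatory interneuron type of the cerebellum, had 523.7 ± 169 CPM of Neurod1 at E14.5, 1615 ± 175 at E18.5 and 1214 ± 250 at P5 (SD, n = 2 at P5). Among numbered clusters, E18.5 cluster 10, led by Sept4 and Ppp1r14a, had 1722 ± 229 CPM, and E14.5 cluster 5, led by Carnmt1, Pvalb and Eomes, had 696.5 ± 76.6 CPM. At P5 cluster 14, led by Necab3 and Otx2, had 3229 CPM, but 98.5% of its cells came from 1 library. E18.5 cluster 10 and unipolar brush cell-like cells could not be ordered beyond their SDs.

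Neurod2 and Neurod6 were also high outside the clusters called PN-like. E14.5 cluster 16, led by Hoxb3os, Zfp503 and Ren1, had 4 of the 6 PN markers above the mean and 134.7 CPM of Atoh1 but missed the other limits of the PN-like class, so whether it belongs to the PN lineage is not settled. It had 578.9 ± 59.4 CPM of Neurod2 and 397.0 ± 31.5 CPM of Neurod6 (SD, n = 3). Unipolar brush cell-like cells at E18.5 had 471.7 ± 33.2 CPM of Neurod2 and 322.5 ± 26.0 CPM of Neurod6, and at P5 Neurod6 was at 524.2 and 546.2 CPM in them, 8.32 times the level of PN-like cells. Granule lineage-like cells had 386.1 ± 71.2 CPM of Neurod2 at E14.5 and 249.1 ± 20.6 at E18.5.

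Neurod4 was nearly absent from PN-like cells, with a mean of 0.433 CPM at E14.5 and 0.737 at E18.5. It was highest in E18.5 cluster 22, led by Nts, Rassf9, Olig2 and Barx2, at 116.7 ± 18 CPM (SD, n = 3), which was 3.02 times the 38.7 ± 5.55 CPM of cycling granule lineage-like cells. Unipolar brush cell-like cells had 32.1 ± 12.9 CPM and granule lineage-like cells 15.3 ± 3.56 CPM of Neurod4 at E18.5. At E14.5 it was at 26.9 ± 15.7 CPM in cluster 12, led by Nts, Cartpt, Ccnd2 and Barx2, and at 22.2 ± 7.22 CPM in cycling granule lineage-like cells, values within the spread of each other. Barx2 and Nts led both clusters.

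Neurog1 and Neurog2 were concentrated in E14.5 glia-like cells. The name does not tell glia from progenitors, since Fabp7 and other markers behind it also stand in the study's list for E18.5 progenitors. The cluster had Fabp7, Aldoc, Ednrb, Mt3 and Dbx1 among its leading genes, and Atoh1 was detected in 0.383% of its thinned control cells. Neurog1 was at 147.1, 15.2 and 66.7 CPM in the control libraries and at 130.5, 97.2 and 68.1 CPM in the Atoh1S193A/- libraries of these cells. Neurog2 was at 388.0, 89.5 and 161.3 CPM in control and 282.4, 225.2 and 162.9 CPM in Atoh1S193A/- libraries, so the genotypes overlapped for both genes. The control mean of Neurog2 there was 65.8 times that of PN-like cells. Thinned shares of cells were 15.3% for Neurog1 and 22.6% for Neurog2 in glia-like cells, against 0 of 2619 (which allows a share of cells with a UMI of up to 0.115% at this thinned depth) and 0.153% in rostral glutamatergic neuron-like cells, with median depths of 14200 and 13230 UMIs. Neurog1 and Neurog2 were found together, with Neurog2 in 75.0% of the 40 Neurog1-positive cells and in 13.1% of the rest of 261 cells. The 3315 control PN-like cells of E14.5 held 12 Neurog1 UMIs at full depth, in 0.362% of the cells, and Neurog2 was at 3.23 CPM in them. At P5 no UMI of Neurog1 was found in any of 14006 kept cells, which allows a share of cells with a UMI, not of cells expressing the gene, of up to 0.0214%, and Neurog2 was at 0.027 and 0.016 CPM.

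Atoh7 also had its highest level outside the PN-like clusters, in E14.5 cluster 21, with Maf, Bnc2 and Cryba2 among its leading genes. Cluster 21 had 582.1, 583.4 and 1224.9 CPM of Atoh7 in the control libraries and 939.5 and 911.6 CPM in Atoh1S193A/- libraries 1 and 3, while Atoh1S193A/- library 2 gave a single cell with no UMI. The control mean was 6.83 times that of migrating neuron-2-like cells. A thinned Atoh7 UMI was present in 56.6% of control cells of cluster 21, at a median depth of 20090 UMIs.

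Across the 97 clusters of the 3 stages, the genes most like each member were ranked among 14921 genes by Pearson's r of log2(CPM + 1) in control libraries. The clusters of a stage share libraries and depth, and no test was made. Neurod1 was most like Cerkl (r = 0.877), with which it shares exon bases, then Bhlhe22 (0.848), a bHLH relative, and Gm2694 (0.825). Neurod2 and Neurod6 were each other's best match (0.858), followed by Prdm8 (0.806) and Tmem151b (0.792) for Neurod2 and by Tmem151b (0.813) and Gprin1 (0.777) for Neurod6. Neurod4 was most like Mgarp (0.841), Pax3 (0.713) and Gsc (0.709), and Atoh7 was most like Scrt2 (0.650), Akt1 (0.650) and Slco5a1 (0.640). Neurog1 was most like Helt (0.920), Nr2e1 (0.888) and Rax (0.822), and Neurog2 was most like Neurog1 (0.695), Tfap2b (0.690) and Tfap2a (0.675). The E14.5 glia-like cluster held 354 of the 389 Neurog1 UMIs of E14.5 control cells, so the values of r for Neurog1 rest mainly on that cluster.

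To ask how the members moved from E14.5 to E18.5 in control hindbrain, UMIs summed over all kept cells were compared by edgeR's quasi-likelihood test with Benjamini-Hochberg adjustment over all genes, in 1 fit of the 12 embryonic libraries. E14.5 control libraries 1 and 2 were counted with Cell Ranger 3.1.0 and the E18.5 controls with 5.0.1, so software version goes partly with stage. A gene was called at an adjusted p below 0.05 and an absolute log2 change above 0.25. Of the 5 members that passed the filter of a UMI in at least 10% of cells, Neurod1 rose and Atoh7 fell, when 50.8% of the 10533 genes tested were called. The count of members called was near that share, so it is not a result about the members. Neurod4 was also called but passed the filter only through the E18.5 cells, of which 14.99% of controls had a UMI against 3.09% at E14.5, so it had to differ to be tested and its values are a description. Neurod1 went from 192.5, 147.0 and 194.2 CPM to 828.4, 818.1 and 831.7 CPM, a log2 change of 2.14 (SE 0.164, edgeR adjusted p = 1.02e-05). Neurod4 went from 4.23, 1.34 and 5.18 CPM to 20.4, 26.8 and 19.8 CPM, a log2 change of 2.56 (SE 0.534, edgeR adjusted p = 0.00231). Atoh7 went from 40.6, 28.9 and 85.3 CPM to 12.5, 10.7 and 14.3 CPM, a log2 change of -2.13 (SE 0.4, edgeR adjusted p = 0.00124). Libraries of the 2 stages did not overlap for any of these 3. The share of all genes without such overlap was not computed, so this is a description. The changes of Neurod2 (-0.02, SE 0.139) and Neurod6 (-0.49, SE 0.226, adjusted p = 0.0914) were not called. The makeup of the sort moved at the same time. Granule lineage-like cells, cycling or not, were 9.46 ± 4.74% of kept cells at E14.5 and 65.2 ± 3.93% at E18.5, unipolar brush cell-like cells 3.51 ± 0.875% and 13.0 ± 2.97%, and PN-like cells 21.5 ± 5.92% and 11.4 ± 5.02% (SD, n = 3). E14.5 cluster 21 held 9452 of the 15628 Atoh7 UMIs of the E14.5 control cells. It was 3.14, 0.598 and 4.93% of the cells of E14.5 control libraries 1, 2 and 3. In sums over all cells, fewer cells of a type and less RNA per cell cannot be told apart, and the part of the makeup in these changes was not tested. Within classes, the Neurod1 level of granule lineage-like cells differed between the stages by less than its SD, while those of cycling granule lineage-like and unipolar brush cell-like cells given above were higher at E18.5, and no class was tested between stages.

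**Figure D4:**
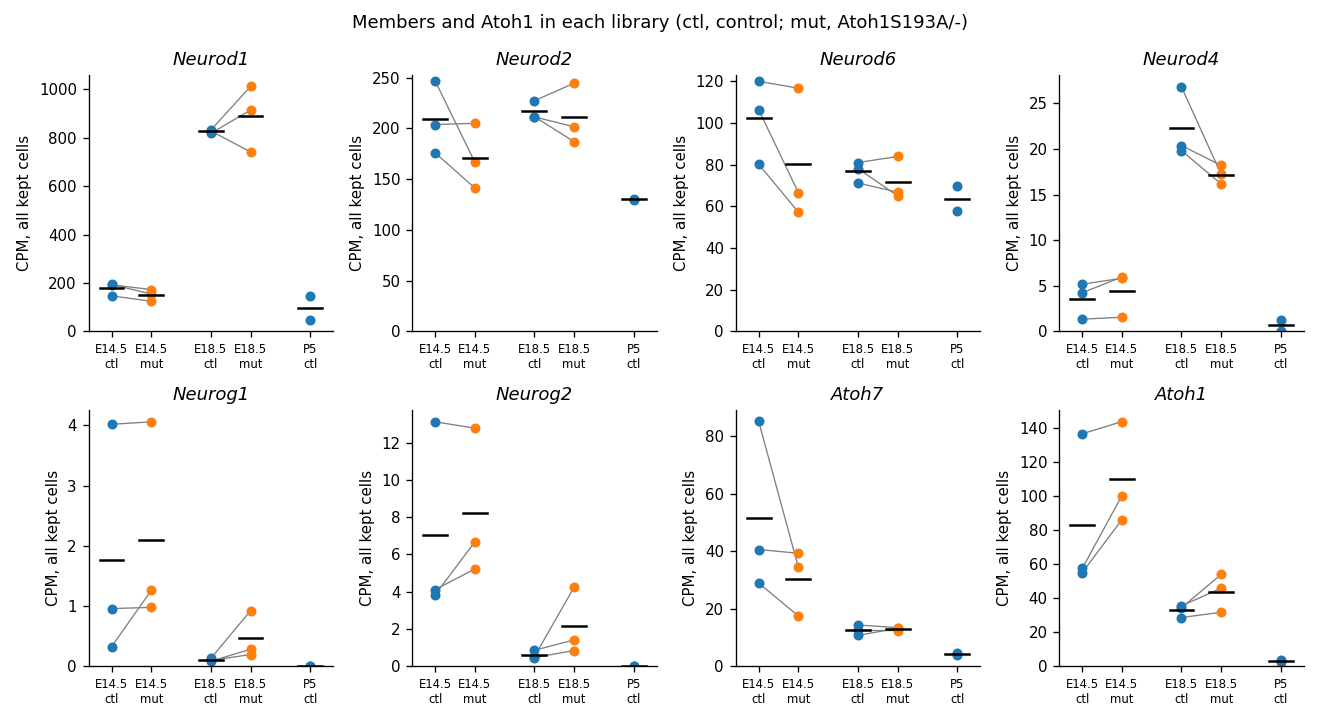
CPM over all kept cells (vertical axes, linear and starting at 0, a scale per panel) of the 7 members and Atoh1 in each library, by stage and genotype (ctl, control; mut, Atoh1S193A/-), with grey lines joining littermates and bars for means. Neurod1 lay between 124.4 and 194.2 CPM at E14.5 and between 741.5 and 1012 CPM at E18.5, and it was lower in the Atoh1S193A/- embryo of each E14.5 litter.

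To ask whether reduced Atoh1 function moved the members, genotypes were compared at each stage. At E14.5 none of the 4 members tested over all kept cells (Neurod1, Neurod2, Neurod6 and Atoh7) was called without a litter term, when 0.00977% of 10240 genes were, and none had an unadjusted p below 0.05 in edgeR or was called by DESeq2. With the litter as a block, Neurod1, Neurod2 and Neurod6 fell, 3 of 4, when 17.6% of genes were called. Neurod1 was at 192.5, 147.0 and 194.2 CPM in control and 172.8, 124.4 and 154.3 CPM in Atoh1S193A/- libraries, lower in each of 3 litters, with a blocked log2 change of -0.27 (SE 0.056, edgeR adjusted p = 0.0204, against 0.574 without the block). Neurod2 was at 246.9, 203.8 and 175.9 CPM in control and 166.7, 204.9 and 141.2 CPM in Atoh1S193A/- libraries, lower in 2 of 3 litters, with a blocked change of -0.32 (SE 0.091, edgeR adjusted p = 0.0494, against 0.474). Neurod6 was at 106.5, 120.1 and 80.3 CPM in control and 66.6, 116.8 and 57.3 CPM in Atoh1S193A/- libraries, with a blocked change of -0.43 (SE 0.103, edgeR adjusted p = 0.0311, against 0.604). The genotypes overlapped for each of the 3. At E14.5, control libraries 1 and 2 were counted with Cell Ranger 3.1.0 and the Atoh1S193A/- libraries with 5.0.1, so software version and genotype cannot be told apart within litters 1 and 2 in any comparison of that stage. In litter 3, with 5.0.1 for both embryos, Neurod1, Neurod2 and Neurod6 were each lower in the Atoh1S193A/- embryo. Atoh7 was not called (40.6, 28.9 and 85.3 against 39.3, 17.5 and 34.4 CPM, blocked change -0.73, edgeR adjusted p = 0.0595). Leaving out a litter from the blocked fit, an alternative chosen after seeing the data, gave 2 calls without litter 1, 2 without litter 2 and 0 without litter 3. Neurod1, Neurod2, Neurod6 and also Atoh7 were each called in only 1 of these fits. The share of all genes called without a litter is not given here, so these counts of members are a description. Over these fits and the unblocked ones without 1 library, the change ran from -0.38 to -0.13 for Neurod1 and from -0.45 to -0.20 for Neurod2. It ran from -0.73 to -0.20 for Neurod6 and from -1.08 to -0.19 for Atoh7.

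Roof plate-like cells and PN-like progenitors were more frequent in the Atoh1S193A/- libraries of E14.5. Roof plate-like cells were 4.34 ± 0.334% of control and 12.04 ± 1.48% of Atoh1S193A/- cells, with ranges of 4.06 to 4.71% and 10.4 to 13.3%. PN-like progenitors and intermediate progenitors were 3.62 ± 1.77% and 9.33 ± 2.34% (SD, n = 3), whereas PN-like cells in all were 21.5 ± 5.92% and 22.6 ± 7.03%. Roof plate-like cells of the control libraries had 2.40 to 6.64 CPM of Neurod1, 5.27 to 18.55 CPM of Neurod2 and 1.44 to 5.83 CPM of Neurod6. Intermediate progenitor-like cells were not uniformly low, with 96.4 ± 54.3 CPM of Neurod2 in control and 123.8 ± 127.8 CPM in Atoh1S193A/- libraries, where 1 library reached 271.0 CPM. Cluster 21, where Atoh7 was highest, was 3.14, 0.598 and 4.93% of the cells in control and 2.305, 0.0145 and 1.92% in Atoh1S193A/- libraries. The part of these shares in the changes over all cells was not tested.

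Within the 5 PN-like states of E14.5 no member was called in 15 tests, with the litter block or without, when 0.00626% of gene and state pairs were called without it and 0.386% with it. An unadjusted p below 0.05 was found once without and 3 times with the block, and once by DESeq2. Without the block the nearest was Neurod6 among migrating neuron-1-like cells, at 78.6, 95.7 and 68.4 CPM in control and 54.2, 53.4 and 43.6 CPM in Atoh1S193A/- libraries, without overlap. Its log2 change was -0.73 (SE 0.162, edgeR adjusted p = 0.305, and 0.132 with the block), and it was called only when no filter on low genes was set (edgeR adjusted p = 0.00182). With the block the nearest was Atoh7 in migrating neuron-2-like cells, which was at 133.8, 127.0 and 89.0 CPM in control and 163.9, 155.2 and 120.7 CPM in Atoh1S193A/- libraries, higher in each of 3 litters, with a blocked change of 0.31 (edgeR adjusted p = 0.0986). In the same cells Atoh1, the mutated gene itself, rose by 0.41 with the block (edgeR adjusted p = 0.0282, against 1.00 without it). Atoh1 was not called in the other 4 PN-like states, where its blocked log2 change ran from -0.33 in progenitor-like cells (187.7 ± 46.4 CPM in control and 152.7 ± 22.7 CPM in Atoh1S193A/- libraries, edgeR adjusted p = 0.142) to 0.76 in differentiated neuron-like cells (edgeR adjusted p = 0.247).

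At E18.5 no member was called over all kept cells among the 5 tested, when 0% of 9883 genes were called without the block and 0.253% with it. Across all genes, 115 had an unadjusted p below 0.05 in edgeR and DESeq2 called 13. Neurod4 was the 1 member with an unadjusted p below 0.05, at 20.4, 26.8 and 19.8 CPM in control and 18.2, 17.2 and 16.2 CPM in Atoh1S193A/- libraries, without overlap (log2 change -0.39, SE 0.130, edgeR adjusted p = 1.00). Neurod1 was at 828.4, 818.1 and 831.7 CPM in control and 741.5, 914.7 and 1012 CPM in Atoh1S193A/- libraries, and Neurod2 at 211.3, 211.5 and 227.2 CPM against 201.6, 186.9 and 244.5 CPM, and both overlapped. In the 4 PN-like states of E18.5 no member was called in 13 tests, when 0.0126% of gene and state pairs were called without the block and 0.111% with it. None of the 13 had an unadjusted p below 0.05 without the block or by DESeq2, and 1 had with the block. Neurod2 in migrating neuron-like cells, for example, had a log2 change of -0.03 (SE 0.101).

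In the other classes of E18.5, 31 member tests were made, when 0.109% of gene and class pairs were called (0.507% with the block). Of the 31, 8 had an unadjusted p below 0.05 in edgeR without the block and 13 with it. Neurod4 and Neurog2 passed the threshold in cluster 22, where 0.552% of 9242 genes were called (0.963% with the block). Neurod4, the member with its highest level in this cluster, fell. It was at 97.2, 132.7 and 120.3 CPM in control and 63.6, 54.2 and 74.6 CPM in Atoh1S193A/- libraries, without overlap, a log2 change of -0.90 (SE 0.156, edgeR adjusted p = 0.0093, and 0.000523 with the block). Neurog2 was at 4.86, 1.30 and 7.61 CPM in control (10, 2 and 10 UMIs) and 40.3, 10.8 and 16.3 CPM in Atoh1S193A/- libraries (168, 6 and 7 UMIs), a log2 change of 2.70 (SE 0.447, edgeR adjusted p = 0.00648). It passed the filter only through the Atoh1S193A/- cells, of which 27.6% had a UMI against 5.94% of control cells, so this member had to differ to be tested and its call is no result. Atoh1S193A/- library 1 held 286 of the 682 cells of the cluster. Without that library the change of Neurog2 was 1.53 (edgeR adjusted p = 0.674) and that of Neurod4 -0.89 (edgeR adjusted p = 0.202), and neither was called. Without control library 2 neither was called (edgeR adjusted p = 0.0645 and 0.0922). In the same cluster Ebf2, a neuronal differentiation factor downstream of the proneural genes, fell by 1.13 on the log2 scale.

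**Figure D5:**
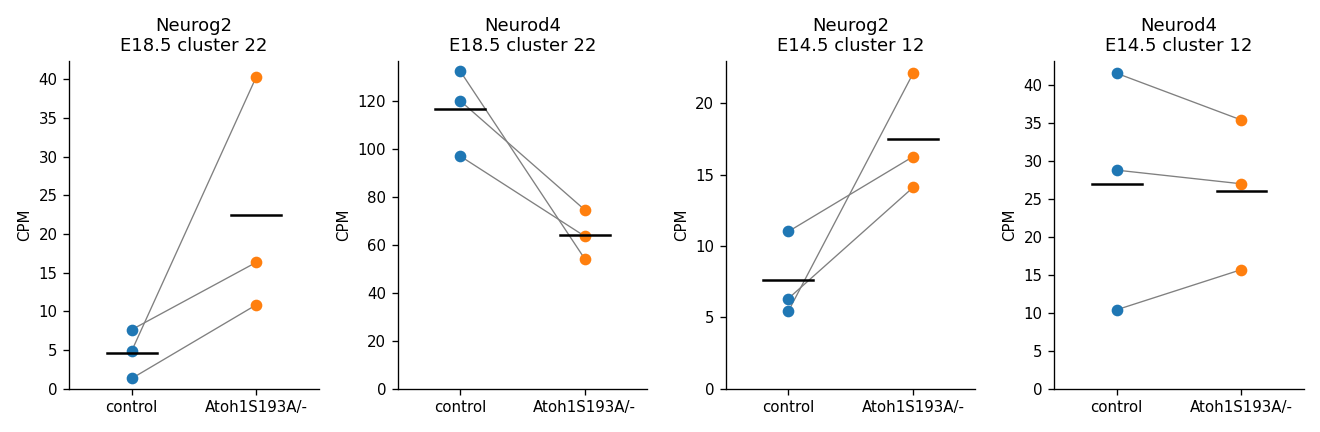
CPM (vertical axes, linear and starting at 0) of Neurog2 and Neurod4 in E18.5 cluster 22 and in E14.5 cluster 12, 1 point per library, grey lines joining littermates and bars for means. In cluster 22 Neurod4 lay between 97.2 and 132.7 CPM in control and between 54.2 and 74.6 CPM in Atoh1S193A/- libraries, and Neurog2 reached 40.3 CPM in Atoh1S193A/- library 1.

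At E14.5 none of 58 tests in 16 other classes was called without the block (0.00179% of gene and class pairs were), although 7 had an unadjusted p below 0.05 in edgeR (19 with the block). DESeq2 called 0 and also gave 7. With the block 4 were called, when 0.274% of pairs were. Neurog2 in cluster 12, which like cluster 22 was led by Nts and Barx2, was at 5.43, 11.0 and 6.31 CPM in control and 22.1, 16.3 and 14.1 CPM in Atoh1S193A/- libraries, without overlap (blocked change 1.28, edgeR adjusted p = 0.0433). It too passed the filter only through the Atoh1S193A/- cells, of which 12.95% had a UMI against 7.79% of control cells. Neurod4 in cluster 12 was at 28.8, 10.4 and 41.6 CPM in control and 27.0, 15.7 and 35.4 CPM in Atoh1S193A/- libraries, which overlapped. Neurod6 fell in cluster 16, from 415.3, 360.7 and 415.1 CPM to 303.5, 287.4 and 297.6 CPM (blocked change -0.47, edgeR adjusted p = 0.00988), and in cycling granule lineage-like cells, from 39.2, 49.8 and 30.1 CPM to 20.6, 34.7 and 19.5 CPM (-0.71, edgeR adjusted p = 0.0270). Neurod1 fell in cluster 30, with Tfap2b among its leading genes, from 59.4, 79.3 and 182.6 CPM to 37.7, 9.07 and 107.7 CPM (-1.23, edgeR adjusted p = 0.0131). Leaving out 1 library from the fit without the block moved that change of Neurod1 between -2.44 (without Atoh1S193A/- library 3) and -0.41 (without control library 3), and none of these was called. At E18.5 the block added Atoh7 in rostral glutamatergic neuron-like cells, at 54.4, 7.04 and 94.2 CPM in control and 8.16, 5.77 and 8.39 CPM in Atoh1S193A/- libraries (-2.98, edgeR adjusted p = 0.000781, against 1.00 without the block). Control library 2 there was at the level of the Atoh1S193A/- libraries, and Atoh7 passed the filter only through the control cells, of which 13.4% had a UMI against 9.97% of Atoh1S193A/- cells.

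Whether the genotype effect differed between the stages was tested by the interaction term of the 12-library fit. No member was called without the block, when 0% of genes were (795 genes but 0 members had an unadjusted p below 0.05 in edgeR), and with it Neurod4 passed the threshold, 1 of 5, when 14.54% of genes did, a share too near the background to be a result about the members. Neurod4 entered this fit only through the E18.5 cells and was below the filter at E14.5. Its interaction was -0.63 (SE 0.153, edgeR adjusted p = 0.0292, against 0.871 without the block), and leaving out 1 library without the block gave -1.10 to -0.27. Neurod4 was at 4.23, 1.34 and 5.18 CPM in control and 5.97, 1.55 and 5.83 CPM in Atoh1S193A/- libraries at E14.5, so it was higher in the Atoh1S193A/- embryo of each litter at E14.5 and lower in each at E18.5.

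Other genes of the pathway were followed in lists of bHLH relatives and partners and of the proneural program downstream of the members. Of 23 relatives and partners, 18 were tested at E14.5 over all kept cells, and edgeR called none without the block, with 5 at an unadjusted p below 0.05. With the block 7 rose and 1 fell (17.6% of all genes were called), with a median log2 change of 0.20 against 0.004 for all genes. Those that rose were the Notch effectors Hes1 (1.35) and Hes5 (1.10), the inhibitors Id1 (0.94) and Id3 (0.95), Olig2 (0.53), Olig3 (0.42) and Atoh1 (0.48), and Bhlhe22 fell by 0.40. Of 25 downstream genes, 24 were tested and none was called without the block, with 4 at an unadjusted p below 0.05. With the block 3 rose and 10 fell, with a median of -0.26. The genes that rose were the Notch ligand Dll1 (0.88), Gadd45g (0.60) and Btg2 (0.44), and among those that fell were the neuronal genes Tubb3 (-0.50), Stmn2 (-0.47), Dcx (-0.35) and Elavl3 (-0.36) and the factor Ebf1 (-0.50). The shares of roof plate-like and progenitor-like cells given above moved with them, and their part was not tested. At E18.5 none of 14 relatives and none of 23 downstream genes was called over all kept cells, with the block or without (2 of each list had an unadjusted p below 0.05 in edgeR without it, and 4 and 9 with it). Between the stages, 2 relatives rose and 7 fell of 18, and 4 downstream genes rose and 11 fell of 24, when 50.8% of all genes were called. The genotype effect was more positive at E18.5 than at E14.5 for 9 of the 24 downstream genes in the blocked interaction, among them Tubb3 (0.48), Stmn2 (0.51), Dll3 (0.59) and Rbfox3 (0.37), and more negative for none, when 14.54% of all genes were called. Of the 18 relatives, 1 had a more positive and 3 a more negative effect at E18.5 in the same fit. Without the block edgeR called none of either list, with 3 of each at an unadjusted p below 0.05.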

How the data were processed

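The authors sorted TdTomato-positive cells, made libraries with the 10x Genomics 3′ kit and deposited UMI counts per gene and cell, aligned to mm10 with the WPRE sequence of the reporter added. The deposited counts are not normalized. Per the file headers, Cell Ranger 3.1.0 was used for E14.5 control libraries 1 and 2 and version 5.0.1 for 12 libraries, whereas the submitters' processing notes name 5.0.1.

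Cells with at least 1000 genes and under 5% mitochondrial UMIs were kept (86757), and the 7.5% of each library with the highest Scrublet scores were removed (6507). Each stage was clustered with scanpy 1.11.5 in Python 3.11.15 (2000 variable genes, 30 components, 15 neighbors, Leiden resolution 1.0) without the members. Marker limits for the classes were set after cluster means had been seen. Shares of cells were compared after thinning each cell to 5000 UMIs, which left out 2785 shallower cells, and they cover counting error only.

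UMIs were summed per library and class, or state, where every library had at least 10 cells. Genes detected in 10% or more of the cells of a genotype were tested with edgeR 4.0.16 in R 4.3.3 (quasi-likelihood F test, TMM), adjusted by Benjamini-Hochberg over all genes. Most counts at an unadjusted p below 0.05 are given without the share over all genes and are a description only. The script was tested on simulated data. The labels' protocol describes each Atoh1S193A/- embryo with its littermate control in independent replicates, and the titles give only replicate numbers. Deviations of same-numbered embryos from the group means correlated (0.527, 0.820 and 0.745 for litters 1 to 3 at E14.5 over 10240 genes, and 0.780, 0.818 and 0.925 at E18.5 over 9883 genes). Embryos with unlike numbers reached 0.28 at E14.5 (control 1 with Atoh1S193A/- 3) and 0.46 at E18.5 (control 1 with Atoh1S193A/- 2), below every same-numbered pair of the stage. The numbers are therefore taken to pair the libraries, but these correlations alone cannot show that the pairs are litters. The 2 P5 libraries enter no test. Genes named beside the members are Atoh1, the genes that lead clusters, the 3 genes most like each member and the called genes of 2 lists. DESeq2 1.42.0, other filters, total UMIs, resolution 2.0 and leave-one-out fits were alternatives. The members and lists were chosen with earlier results of these data known.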

Additional observations from a re-analysis of the deposited data

Results flagged for a closer look

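The genotype effect on Neurod4 over all kept cells passed the threshold in the test of its difference between E14.5 and E18.5, with a log2 interaction of -0.63 (edgeR quasi-likelihood test with the litter as a block, adjusted p = 0.0292 over all genes), 1 of 5 members when 14.54% of all genes were called, a share too near the background to be a result about the members. Neurod4 entered the fit only through E18.5, where 14.99% of control cells had a UMI against 3.09% at E14.5. Neurod4 was higher in the Atoh1S193A/- embryo in 3 of 3 litters at E14.5 and lower in 3 of 3 at E18.5. Without the block the interaction was -0.67 and was not called (edgeR adjusted p = 0.871), and none of the 12 fits that left out 1 library without the block called a member, with Neurod4 between -1.10 and -0.27. No embryonic or postnatal group held the 4 samples that a search for outlying libraries needs.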

How the results depend on the processing

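With the litter as a replicate block the number of members called went from 0 to 3 at E14.5 over all kept cells, from 2 to 7 in the other classes of both stages and from 0 to 1 for the interaction, and it changed no other count. Of these calls in the other classes, Neurog2 in clusters 22 and 12 and Atoh7 in rostral glutamatergic neuron-like cells passed the filter only through the genotype where they were higher, which leaves 1 of 2 and 4 of 7, and Neurod4 entered the interaction only through E18.5. Leaving out replicates gave 0 to 2 calls at E14.5 and 0 to 1 at E18.5 over all kept cells (the upper values from blocked fits without 1 litter, chosen after seeing the data), and 0 to 2 in the other classes, with 0 without Atoh1S193A replicate 1 and 1 without control replicate 2 (Atoh7 in rostral glutamatergic neuron-like cells of E18.5, not a member called in cluster 22). The 1 call at E18.5 was Neurod4 without litter 1 (-0.49, edgeR adjusted p = 0.034), and Neurod4 was not called there in the fits of all libraries of the stage. The share of all genes called in the leave-out fits is not given here, so their counts of members are a description. With no filter on low genes, 1 member was called in PN-like states of E14.5 and 12 in the other classes. Among the latter, Neurog2 was higher in Atoh1S193A/- libraries in clusters 12 and 13 and cycling granule lineage-like cells of E14.5. It was also higher in cluster 22, cycling granule lineage-like and unipolar brush cell-like cells of E18.5. The rest were calls of Neurog1, Neurod1, Neurod4 and Atoh7. The share of all genes called without the filter is not given here. Cell Ranger 5.0.1 libraries alone left 1 control library at E14.5, which had to be assumed to vary like the others, so calls from that fit are not given. Of 88 recomputed counts of members called, 78 stayed within 1.5 times the main count. Many of these main counts were 0, and a 0 that stays 0 says little about stability. Of 333 recomputed changes of single members, 299 kept their direction and side of the threshold, 19 gained a call, 5 lost one and 10 reversed. Directions reversed only for changes over all kept cells that were never called. Atoh7 at E18.5 was -0.25 with all barcodes, -0.0017 with doublets kept and -0.23 with a mitochondrial limit of 10%, and leaving out replicates gave -0.074 to 0.16. Over the same leave-outs Neurod1 at E18.5 ran from -0.0050 to 0.22, Neurod2 at E18.5 from -0.17 to 0.0082 and Neurod2 between the stages from -0.11 to 0.094. The reversed values were -0.056 and -0.074 for Atoh7, -0.0050 and -0.00075 for Neurod1, 0.0082 for Neurod2 at E18.5, and 0.094 and 0.021 for Neurod2 between the stages. The cause was not tested. Of 84 recomputed levels, 25 moved by more than the spread between libraries. The cell state with the highest level was the same in 7 of 10 cases at resolution 2.0 and in 8 of 10 after thinning, and Neurod2 and Neurod6 at E14.5 moved between differentiated neuron-like and migrating neuron-2-like cells in both, and Atoh7 at E14.5 moved to migrating neuron-1-like cells at resolution 2.0. With 3 libraries per genotype and few cells in ePN4-like cells, cluster 21 and cluster 22, changes there were weakly constrained.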
